A study of Columba livia with 16 samples.

Results

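Forelimb buds of the Indian fantail, a feather-footed pigeon breed, were compared with those of the scale-footed racing homer through their deposited lists of H3K27ac peaks. The 31831 forelimb peaks of both lists, of 73059 peaks in the 4 lists of the series, were taken as members: 16474 from the racing homer list and 15357 from the Indian fantail list. The foot of the Indian fantail is feathered and that of the racing homer is scaled, while the wing of both breeds is feathered. The forelimb was therefore taken as the limb whose identity does not differ between them, which was not tested here. By quantitative RT-PCR, the study could not tell the breeds apart in forelimb expression of *Tbx5*. Embryos of both breeds were taken at stage HH25. Each breed gave 2 forelimb libraries precipitated with an antibody against H3K27ac and 2 libraries of forelimb input chromatin, 8 of the 16 libraries of the series; the other 8 were made in the same way from hindlimb buds. No treatment or transgene is in the labels, which also do not say how many embryos went into a library or whether replicates came from separate embryos. The study reports a deletion near *Pitx1* in the Indian fantail, and that interval is described separately below.

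H3K27ac is an acetylation of histone H3 that marks active enhancers and promoters and is used to map regulatory elements in developing limbs. *Tbx5* encodes the T-box factor that is needed to start the forelimb and marks its identity, *Pitx1* encodes the homeodomain factor that gives the hindlimb its identity, and *Tbx3*, beside *Tbx5*, encodes a T-box factor that patterns the margins of both limb buds. *H2afy*, which encodes a macroH2A histone variant, lies beside *Pitx1*.

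Since a list combines the replicates of its breed and limb, the values carry no replicate error, and no difference between breeds could be tested. The number of reads behind a peak is unknown. Shares are given with 95% Wilson intervals for counting error alone, except that a share with a count of 0 is given the limit of 3 counts divided by the total, which is somewhat lower than the Wilson limit. Peaks that lie side by side are not independent of each other. A peak absent from a list did not pass the peak caller's threshold; its place may still carry the mark. In bulk chromatin of limb buds, fewer cells that carry the mark and less of the mark per cell cannot be told apart. Each peak has a score, at least 50 in every list, which was compared only within its list, as a rank or percentile.

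The forelimb label was checked at the limb identity genes through windows on the scaffolds, since an annotation of the assembly was not at hand. The *Tbx5* and *Tbx3* windows were taken from 640000 to 760000 and from 760000 to 800000 of scaffold 70, bounds read by eye from the study's plot of the locus, so that they are approximate. In RefSeq's gene table of another pigeon assembly (bColLiv1.pat.W.v2), *TBX5* has *RBM19* and *TBX3* as its protein-coding neighbours. Both forelimb lists had peaks with a score of 3100, in the uppermost percentile of their lists, in the *Tbx5* window of scaffold 70. The racing homer hindlimb list had 0 peaks in this window. The Indian fantail hindlimb list had 4, covering 13.2 kb and reaching percentile 96.6, so peaks there do not by themselves mark the forelimb in that breed. Neither forelimb list had a peak over the place of the widest hindlimb peak in the *Pitx1* window, which spans 20.9 kb in the racing homer, from 6978327 to 6999257 of scaffold 79.

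Most forelimb peaks were common to the breeds. Of the 16474 racing homer peaks, 12431 overlapped an Indian fantail forelimb peak by at least 1 bp (75.5%, interval 74.8 to 76.1%). Of the 15357 Indian fantail peaks, 12025 overlapped a racing homer forelimb peak (78.3%, 77.6 to 78.9%). The remaining 4043 racing homer peaks (24.5%) are called homer-only and the remaining 3332 Indian fantail peaks (21.7%) fantail-only. When each list was cut to its 15357 peaks of highest score (lists of equal size), the order of the shares turned, to 78.0% and 75.9%. The lists covered 31.5 Mb in the racing homer, against 33.1 Mb in the Indian fantail, with 24.3 Mb in common, which was 77.3% of the first and 73.6% of the second. The Indian fantail list thus had fewer peaks and more covered sequence. Of the sequence covered in a single breed, homer-only peaks held 4.82 Mb. The parts of shared racing homer peaks outside Indian fantail peaks, at their edges or over gaps between those peaks, held 2.34 Mb. In the Indian fantail, the corresponding lengths were 4.51 Mb and 4.23 Mb, so the surplus in covered length lay in such parts of shared peaks.

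Set beside the other pairs of lists, the forelimbs of the breeds had 60.5% of their joint covered sequence in common, as did the hindlimbs (60.5%). Forelimb and hindlimb of the same breed had 54.9% in common in the racing homer, against 52.1% in the Indian fantail. The forelimb of a breed and the hindlimb of the other breed had 49.9% in common for the racing homer forelimb and 54.8% for the Indian fantail forelimb. With lists of equal size, the value was 60.5% for the forelimbs, 62.6% for the hindlimbs and 52.7 to 55.9% for the 4 pairs of unlike limbs. In both forms, the same limb in different breeds had more covered sequence in common than did different limbs of the same breed.

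Whether a forelimb peak was shared went with its score. Each list was divided into 10 score deciles, from 1 (lowest) to 10 (highest). In decile 1 of the racing homer, 41.9% of peaks were shared (39.5 to 44.3%), and in decile 10 99.8% (99.5 to 99.9%). In the Indian fantail, the same shares were 41.9% (39.4 to 44.3%) and 99.9% (99.6 to 100.0%). Each decile had a higher share than the decile below it, except decile 10 of the Indian fantail, which had 1 unshared peak. Its decile 9 had 0 of 1536 unshared, which allows a share of up to 0.195% by the limit of 3 counts. Homer-only peaks had a median score of 69.9, against 161 for shared peaks of that list, and 89.6% of them lay in deciles 1 to 5. Fantail-only peaks had a median score of 68.0, against 152, with 91.7% in deciles 1 to 5. All 99 racing homer peaks and all 64 Indian fantail peaks with a score of at least 3100 were shared. Scores pile up at this value: 90 of the 99 and 59 of the 64 had exactly 3100, so that equal scores of 3100 show no more than that both peaks reached it. In deciles 9 and 10, 11 of 3294 racing homer peaks and 1 of 3071 Indian fantail peaks were not shared, and these peaks are named below.

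**Figure D1:**
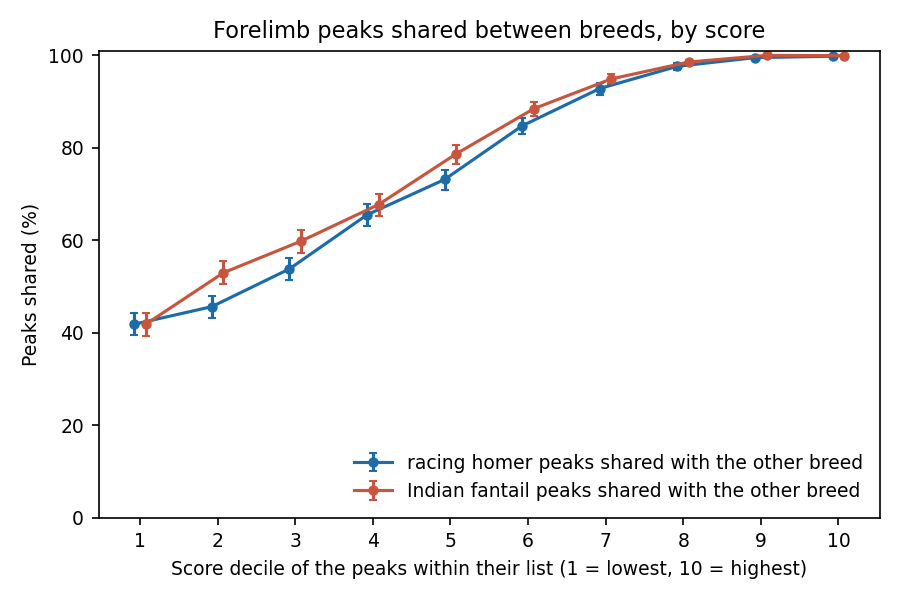
Share of forelimb peaks that overlap a forelimb peak of the other breed by at least 1 bp (%), for each score decile of a list, in the racing homer (blue) and the Indian fantail (red). Points are shares and bars 95% Wilson intervals; both breeds start at 41.9% in decile 1 and reach 99.8% and 99.9% in decile 10.

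Breed-only peaks were narrower than shared peaks. The median width was 1102 bp for homer-only peaks (quartiles 837 and 1422 bp) and 1716 bp for shared racing homer peaks (1109 and 2579 bp). It was 1260 bp for fantail-only peaks (947 and 1632 bp) and 1924 bp for shared Indian fantail peaks (1244 and 2862 bp). Scores and widths go together, and within a score decile the gap was small: in deciles 1 to 8, the median width of shared peaks minus that of breed-only peaks lay between -82 and 90.5 bp in the racing homer and between -127 and 85 bp in the Indian fantail. Of peaks under 1 kb wide, 60.8% were shared in the racing homer, against 67.2% in the Indian fantail. From 4 to 7 kb, 4 of 895 racing homer peaks and 2 of 1110 Indian fantail peaks were not shared. Of peaks of at least 7 kb, a limit chosen after the values were seen, 5 of 264 and 2 of 326 were not shared. The 5 widest peaks of each list were all shared. They were 21.0 to 29.2 kb wide in the racing homer, on scaffolds 699, 893, 574, 454 and 7, and 25.5 to 34.6 kb in the Indian fantail, on scaffolds 70, 893, 699, 538 and 454. Each of them except the peak of scaffold 70, which lies in the *Tbx5* window, also overlapped a racing homer hindlimb peak, and all 10 overlapped an Indian fantail hindlimb peak. The scores of these wide peaks ranged widely, from 50.8 on scaffold 574 to 3100 on scaffold 699 in the racing homer.

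**Figure D2:**
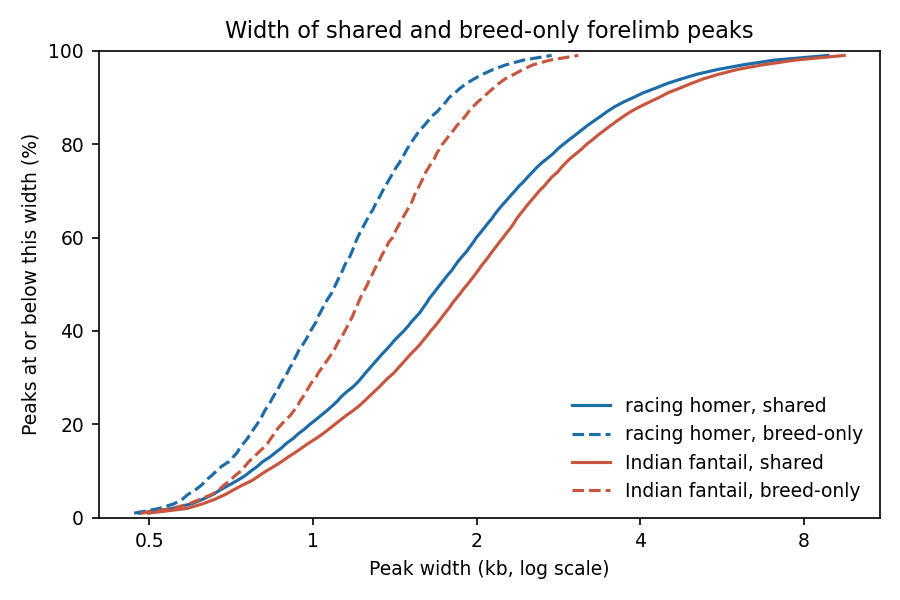
Share of peaks at or below a given width (%, vertical) against width (kb, log scale) for shared (solid) and breed-only (dashed) forelimb peaks of the racing homer (blue) and the Indian fantail (red). Each dashed curve lies to the left of the solid curve of its colour over most of its course, with medians of 1102 and 1260 bp against 1716 and 1924 bp.

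Where a peak of a breed overlapped a single peak of the other, and the reverse, widths and edges were compared. There were 10549 such one-to-one pairs, which held 64.0% of the racing homer peaks and 68.7% of the Indian fantail peaks. Their median width was 1682 bp in the racing homer, against 1838 bp in the Indian fantail, and the median ratio of Indian fantail to racing homer width was 1.06 (log2 0.08, quartiles -0.09 and 0.31). The Indian fantail peak was the wider in 6555 pairs (62.1%), the racing homer peak in 3976, and 18 pairs were of equal width. A difference of more than 2-fold was rare: in 295 pairs (2.80%) the Indian fantail peak was the wider, and in 52 pairs (0.493%) the racing homer peak. The median distance between the left edges was 133 bp and between the right edges 137 bp, and in 223 pairs both edges differed by at most 10 bp. Ranks within the lists were compared as well. The scores of the pairs had a Spearman's rho of 0.78 across peaks, which share libraries and are not independent, and the score percentile differed by at most 10 points in 5277 pairs (50.0%). Of 2681 pairs whose racing homer peak was above percentile 80, 40 had an Indian fantail peak at or below percentile 50, and of 2498 pairs in the mirrored comparison, 22 did.

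The 5 pairs with the largest ratios in each direction were the following by rule. The racing homer peak was 6.84-fold wider on scaffold 699 (1085440 to 1098201, percentile 26.3, against 1096254 to 1098118, percentile 14.5) and 4.17-fold wider on scaffold 7 (14047242 to 14053481, percentile 88.9, against 14048629 to 14050126, percentile 22.5). The other 3 were 3.00- to 3.66-fold wider, on scaffolds 34, 628 and 693. The Indian fantail peak was 4.16-fold wider on scaffold 869 (155255 to 157382, percentile 66.7, against 156865 to 157376, percentile 1.03), and the other 4 were 3.59- to 3.97-fold wider, on scaffolds 27, 265, 774 and 981. In all 10 pairs the wider peak also had the higher score percentile in its list.

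Some peaks of a breed were split in the other. A single Indian fantail peak lay over 2 or more racing homer peaks in 803 places, and a single racing homer peak over 2 or more Indian fantail peaks in 439. The gaps inside them were short, with a median of 147 bp among 861 gaps in the racing homer list and 109 bp among 455 gaps in the Indian fantail list. The widest gap in the Indian fantail list was 4460 bp, from 4169374 to 4173833 of scaffold 79, under a racing homer peak (4162981 to 4183076, score 1356). Hindlimb peaks covered 97.6% of this gap in the racing homer and all of it in the Indian fantail. The widest gap in the racing homer list was 3188 bp, from 3625657 to 3628844 of scaffold 244, under an Indian fantail peak with a score of 525, and hindlimb peaks covered 85.0% of it in the racing homer, against 99.8% in the Indian fantail. Of the next 8 gaps, 2 were nearly bare in the hindlimb list of a breed. The gap from 713324 to 714762 of scaffold 538, in the Indian fantail forelimb list, was covered to 2.29% in the Indian fantail hindlimb and to 100% in the racing homer hindlimb. The gap from 7286013 to 7288257 of scaffold 34, in the racing homer forelimb list, was covered to 91.8% in the racing homer hindlimb and to 0% in the Indian fantail hindlimb, although the forelimb peak over it is the Indian fantail's.

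The *Tbx5* window held no breed-only peak. The racing homer forelimb list had 10 peaks there and the Indian fantail forelimb list 9, and 0 of each were unshared, against 24.5% and 21.7% of all peaks. The first large peak ran from 677169 to 686575 in the racing homer and from 677175 to 686575 in the Indian fantail, both with a score of 3100, so that the left edges were 6 bp apart and the right edges coincided. Next came the widest peak of the whole Indian fantail forelimb list, from 686952 to 721525, 34.6 kb long with a score of 744.9. The racing homer list had 2 peaks in its place, from 686972 to 702227 and from 702884 to 721600, each with a score of 3100. The outer edges of this domain were 20 and 75 bp apart between the breeds. The last large peak ran from 724411 to 736115 in the racing homer and from 723453 to 736159 in the Indian fantail, again with a score of 3100 in both. Beyond it, 2 Indian fantail peaks with scores of 241 and 299.9 (percentiles 75.5 and 80.8) lay over 2 racing homer peaks with scores of 51.3 and 111 (percentiles 1.91 and 46.3). Ahead of the first large peak, 4 small peaks in each list had scores of at most 105 and 71.5, respectively. In the *Tbx3* window, next to it, 0 of 9 racing homer and 0 of 8 Indian fantail peaks were unshared. Together, the windows held 19 racing homer and 17 Indian fantail peaks, for which a count of 0 allows unshared shares of up to 15.8% and 17.6% by the limit of 3 counts. This limit treats the neighbouring peaks of a locus as independent, which they are not. Whether the windows differ from all peaks was therefore not tested. The 3 highest-scoring peaks of the *Tbx3* window were the same in both breeds, with percentiles from 98.0 to 99.0 in their lists. Their scores were 2008 to 2329 in the racing homer list and 1424 to 1669 in the Indian fantail list, and are not compared between the lists.

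**Figure D3:**
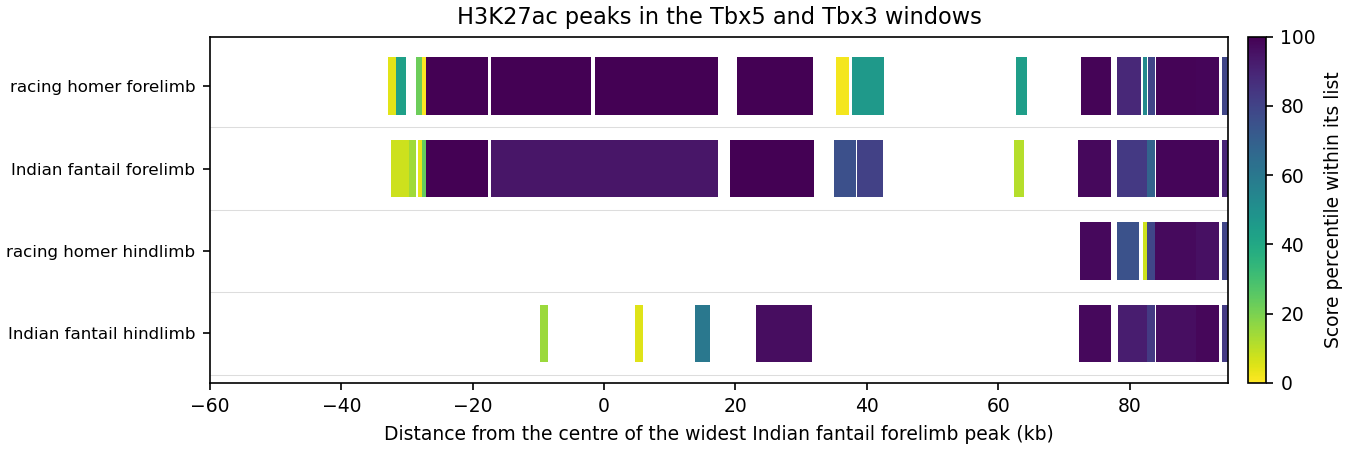
H3K27ac peaks of the 4 lists in the *Tbx5* and *Tbx3* windows of scaffold 70, as boxes to scale along the scaffold (distance in kb from the centre of the widest Indian fantail forelimb peak), coloured by score percentile within the list (0 to 100). The large forelimb peaks have counterparts in both breeds, and the 34.6-kb Indian fantail peak stands over 2 racing homer peaks; the racing homer hindlimb row is empty over *Tbx5* and all 4 rows are filled over *Tbx3*.

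The window with *H2afy* and *Pitx1*, set by hand from the end of the deleted interval past the widest hindlimb peak, held 8 racing homer forelimb peaks, of which 4 were homer-only, and 6 Indian fantail forelimb peaks, of which 2 were fantail-only, against 24.5% and 21.7% of all peaks of the lists. All shared peaks lay from 6768702 to 6795828, and the highest-scoring of them ran from 6787524 to 6791877 in the racing homer (score 565) and from 6787555 to 6792281 in the Indian fantail (score 508). The homer-only peaks started at 6779595, 6821022, 6852319 and 6869854 and had scores from 51.2 to 81.1, at percentiles 1.89 to 30.5 of their list. The fantail-only peaks started at 6833270 and 6883274, with scores of 74.8 and 160.7. All 6 breed-only peaks lay over a hindlimb peak of the other breed, as did 62.2% of all homer-only and 49.5% of all fantail-only peaks. The window holds few peaks, and the neighbouring peaks of a locus are not independent. Whether the window differs from all peaks was therefore not tested.

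The deleted interval gave 4 homer-only peaks in a row. The primers with which the study types this deletion are shown because they tell which parts of the locus are read. These are the 5′ side of the deletion, a sequence peculiar to the feathered allele and the inside of the deletion. The primers were copied from the study's list of oligonucleotides, 5′ to 3′, with no part in capitals.
forward primer on the 5′ side of the deletion: acagaaaacaaaaccggca
reverse primer in the sequence peculiar to the feathered allele: tataaatgcacgccatctcg
reverse primer inside the deletion: ctgacaggcaccatgacaat
The 4 racing homer forelimb peaks of the interval lie from 6724973 to 6727693 (score 276), 6729417 to 6730513 (51.6), 6737293 to 6738318 (57.2) and 6746226 to 6751472 (456) and cover 10.1 kb. The first and the last are at percentiles 77.6 and 87.3 of their list and the others at 2.24 and 10.1. The racing homer hindlimb list has more there, with 9 peaks that cover 35.3 kb and reach percentile 96.7 of that list. The Indian fantail forelimb list has no peak between 6718742 and 6768702, a stretch of 50.0 kb. Since the study reports the sequence of the interval as deleted in the Indian fantail, the absence of peaks there does not measure acetylation.

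This row was set beside all other rows of breed-only peaks. A cluster was taken as 3 or more breed-only peaks in succession, with no peak of the other breed among them and gaps of at most 50 kb. There were 86 homer-only clusters, with 281 peaks (6.95% of the homer-only peaks), and 58 fantail-only clusters, with 182 peaks (5.46%). None held more than 5 peaks: 6 homer-only and 2 fantail-only clusters held 5, and 11 and 4 held 4. In 39 of the 86 and 33 of the 58, every peak had a score below 100. With lists of equal size the clusters numbered 56 and 80, and with peaks of a score of at least 100 they numbered 26 and 22. The deleted interval was second among the 86 in covered length and in its highest score, and tied at rank 7 in number of peaks, by which clusters were named. In 1 of 86 homer-only clusters, that of the deleted interval, every peak overlapped a hindlimb peak of the racing homer and none overlapped one of the Indian fantail. This pattern was chosen after the data were seen. With the sequence reported as deleted, the absence from the Indian fantail hindlimb list was given in advance and is no separate result. The count of such homer-only clusters was 0 with a score of at least 100, at which the interval keeps 2 peaks, and 0 with an overlap of 50% of both peaks. The mirrored pattern was found in 0 of 58 fantail-only clusters, which allows a share of up to 5.17% by the same limit of 3 counts. In 27 of 86 homer-only and 10 of 58 fantail-only clusters, every peak overlapped a hindlimb peak of the other breed, and in 3 and 2 no peak overlapped a hindlimb peak of either breed. Of all single homer-only and fantail-only peaks, 62.2% and 49.5% overlapped a hindlimb peak of the other breed. Overlapped in neither hindlimb were 28.8% and 27.1%. Whether the cluster counts differ from what these shares would give was not tested.

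The homer-only cluster with the most covered sequence lay on scaffold 150, from 2993683 to 3021045. Its 5 peaks cover 18.8 kb and include the highest-scoring homer-only peaks of the list, from 3000896 to 3006157 (score 1262, percentile 97.2) and from 2993683 to 3000832 (score 1019.8, percentile 96.0). The Indian fantail forelimb list has no peak from 2981271 to 3023082, but the Indian fantail hindlimb list has a peak from 2993170 to 3009842, 16.7 kb wide with a score of 62.0. In the racing homer hindlimb list, the place holds a 14.3-kb peak with a score of 351. Low scores on wide peaks also occurred elsewhere: of peaks of at least 7 kb, 4 of 264 in the racing homer forelimb, 8 of 326 in the Indian fantail forelimb, 4 of 382 in the racing homer hindlimb and 5 of 595 in the Indian fantail hindlimb had a score below 100. The other homer-only clusters named by rule, on scaffolds 543, 236, 471 and 34, held 5 peaks each, covered 6.14 to 7.89 kb and had highest scores of 77.2 to 153. Of the fantail-only clusters, the 5 with most peaks lay on scaffolds 274, 384, 102, 66 and 306, covered 5.69 to 7.66 kb and had highest scores of 78.1 to 251.

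The other homer-only peaks of high score lay outside the clusters, some of them next to another homer-only peak. On scaffold 538, the widest homer-only peak ran from 635967 to 654366 (18.4 kb, score 260.6) and was followed directly by a peak from 654395 to 658738 (score 797), the third highest among homer-only peaks. The first of these is overlapped in none of the other 3 lists. The second is matched in the hindlimb of the racing homer (654383 to 658976, score 1012) and in neither Indian fantail list. On both sides of this stretch lie peaks present in all 4 lists, which end in the Indian fantail forelimb at 634897 and start again at 659496. On scaffold 216, a homer-only peak from 6156284 to 6159227 (score 466) is matched in the racing homer hindlimb (6156494 to 6159447, score 596), and its nearest Indian fantail forelimb peak is 50.0 kb away. On scaffold 7, a homer-only peak from 10914722 to 10925848 (11.1 kb, score 407) is matched in the racing homer hindlimb and in neither Indian fantail list, and the next Indian fantail forelimb peak starts at 10926050 with a score of 1211. Whether the Indian fantail carries the sequence of these places on scaffolds 538, 216 and 7 was not tested. Homer-only peaks on scaffolds 836 (390652 to 402164, 11.5 kb, score 282) and 274 (1556894 to 1564422, score 215, and 1564630 to 1567142, score 406) lie over hindlimb peaks of both breeds. The remaining 4 homer-only peaks of deciles 9 and 10, on scaffolds 146, 244, 379 and 418, had scores of 325 to 339 and lie over hindlimb peaks of both breeds.

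Fantail-only peaks had a single member in deciles 9 and 10. It lay on scaffold 836, from 161896 to 176147 (14.3 kb, score 720.5, percentile 94.1), over a hindlimb peak of its breed from 161877 to 174801 (score 1374). The racing homer hindlimb list has 2 peaks there, with scores of 256 and 531, and the racing homer forelimb list has none between 158630 and 180218. The next 4 fantail-only peaks by score, on scaffolds 461, 66, 36 and 3979, had scores from 232 to 255 and lie over hindlimb peaks of both breeds. The widest fantail-only peak, from 10358702 to 10381692 of scaffold 7 (23.0 kb), had a score of 124 and is met by a racing homer hindlimb peak from 10377750 to 10381961. The other fantail-only peaks among the 5 widest, on scaffolds 439, 490 and 686, were 3.90 to 4.18 kb wide. Of fantail-only peaks present in the Indian fantail hindlimb and in no racing homer list, the highest-scoring lay on scaffolds 128 (469152 to 471237, score 229), 336 (194700 to 197138, score 225) and 282 (380692 to 382522, score 193).

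**Figure D4:**
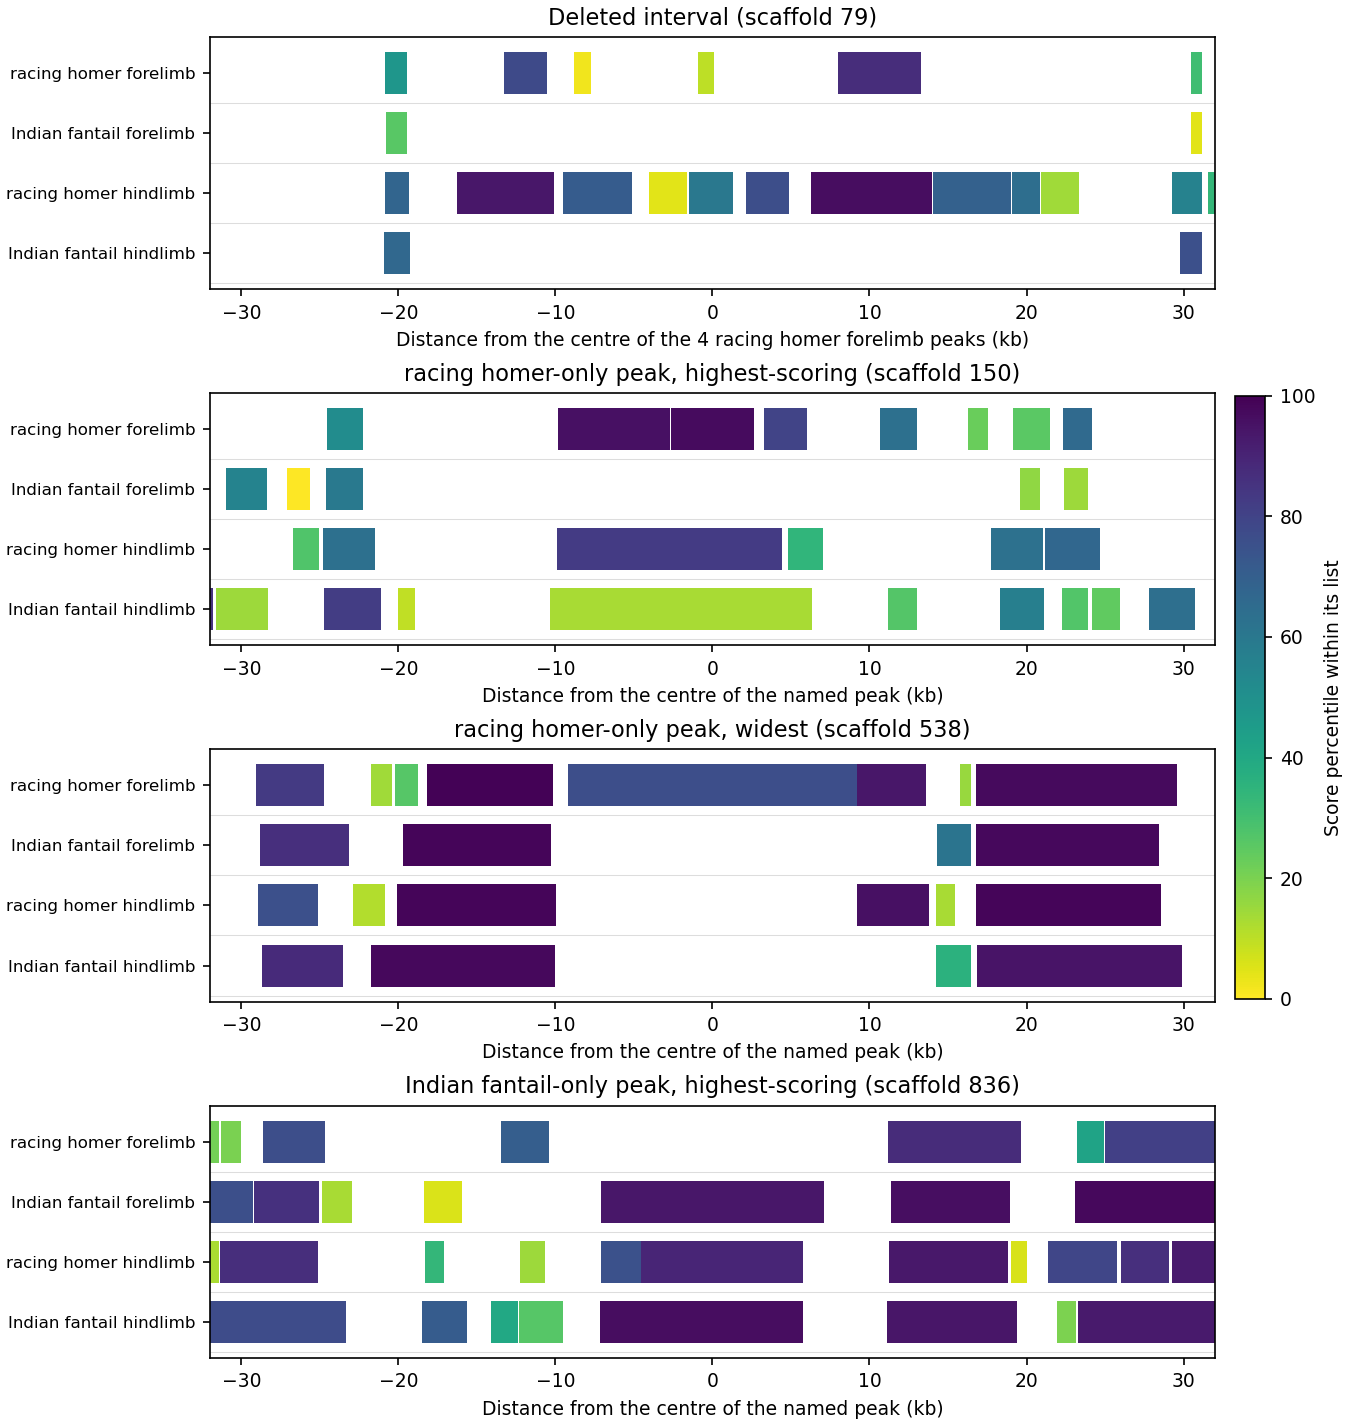
H3K27ac peaks of the 4 lists around 4 places with breed-only forelimb peaks, as boxes to scale (distance in kb from the centre of the named peak or, in the uppermost panel, of the 4 racing homer peaks), coloured by score percentile within the list (0 to 100). The Indian fantail rows are empty in the deleted interval, where both racing homer rows have peaks. Over the 18.4-kb racing homer forelimb peak of scaffold 538, all other rows are empty, that of the racing homer hindlimb among them. On scaffold 150 the Indian fantail hindlimb row has a wide peak of low score, and on scaffold 836 only the racing homer forelimb row is empty over the named peak.

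The hindlimb lists showed how often a breed-only forelimb peak was found at all in the other breed. Of homer-only peaks, 2514 of 4043 overlapped a hindlimb peak of the Indian fantail (62.2%, 60.7 to 63.7%), against 93.1% of shared racing homer peaks (92.7 to 93.6%). Of fantail-only peaks, 1650 of 3332 overlapped a hindlimb peak of the racing homer (49.5%, 47.8 to 51.2%), against 89.6% of shared Indian fantail peaks (89.0 to 90.1%). The gap between breed-only and shared peaks was also there among peaks of like score. In decile 1, 50.2% of homer-only and 80.6% of shared racing homer peaks overlapped an Indian fantail hindlimb peak, and in decile 7 83.1% and 95.2%. For the racing homer hindlimb, the Indian fantail values were 41.5% and 73.3% in decile 1 and 69.2% and 92.2% in decile 7. The hindlimb list of the Indian fantail is the longer, with 22407 peaks against 18821. With lists of equal size, the shares were 43.6% (42.0 to 45.3%) for homer-only peaks over the Indian fantail hindlimb and 39.7% (38.1 to 41.3%) for fantail-only peaks over the racing homer hindlimb. The order of these shares turned, to 40.2% and 42.7%, when an overlap of 50% of both peaks was required. Breed-only peaks were chosen anew in both alternatives, so these shares describe other sets of peaks. With lists of equal size, 3381 peaks were homer-only and 3703 fantail-only. With an overlap of 50%, breed-only peaks include those with a smaller overlap between the breeds, and the hindlimb overlap had the same limit.

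Set beside the hindlimb of their own breed, 2114 homer-only peaks (52.3%, 50.7 to 53.8%) and 2206 fantail-only peaks (66.2%, 64.6 to 67.8%) were overlapped, against 62.2% and 49.5% for the hindlimb of the other breed. With lists of equal size, the values were 44.2% against 43.6% for homer-only peaks and 47.1% against 39.7% for fantail-only peaks. Both values of a pair come from the same peaks, and their difference was not tested. A homer-only peak present in the hindlimb of its breed and in no Indian fantail list was found 364 times (9.0%), and a fantail-only peak present in the hindlimb of its breed and in no racing homer list 780 times (23.4%). Shared peaks, set beside the hindlimb lists alone, showed the same order: 2.53% of those of the racing homer and 6.15% of those of the Indian fantail were overlapped in the hindlimb of their own breed only. The Indian fantail hindlimb list is the longer, with 22407 peaks against 18821. Values for the hindlimb of the own breed only were not taken with lists of equal size. Overlapped in no hindlimb list were 1165 homer-only peaks (28.8%, 27.4 to 30.2%) and 902 fantail-only peaks (27.1%, 25.6 to 28.6%), against 4.34% and 4.25% of shared peaks.

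**Figure D5:**
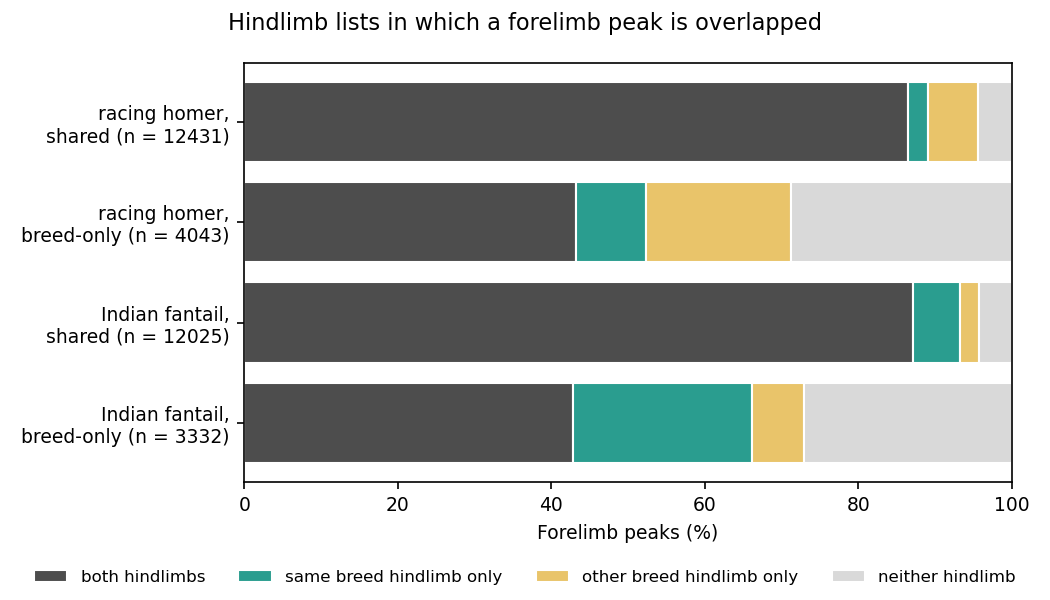
Share of forelimb peaks (%) overlapped by a peak in both hindlimb lists, in the hindlimb list of the same breed only, in that of the other breed only, or in neither, as stacked bars for shared and breed-only peaks of each breed. The part overlapped in neither list is 28.8% and 27.1% for breed-only peaks and 4.34% and 4.25% for shared peaks.

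Breed-only peaks lay at all distances from the peaks of the other breed. Of homer-only peaks, 631 (15.6%) had an Indian fantail forelimb peak within 1 kb, 1379 (34.1%) from 1 to 10 kb away and 1975 (48.8%) further away, and 58 (1.43%) lay on a scaffold with none. The fantail-only peaks gave 541 (16.2%), 1166 (34.99%), 1595 (47.9%) and 30 (0.900%). On the scaffolds with peaks of both lists, the median distances were 9753 and 9240.5 bp.

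Peak numbers were also compared scaffold by scaffold. On the 157 scaffolds with at least 60 forelimb peaks, the ratio of Indian fantail to racing homer peaks had a median of 0.94 (quartiles 0.89 and 1) and was below 1 on 113, while the covered length was greater in the Indian fantail on 122. The ratio was lowest on scaffold 93, with 42 racing homer and 26 Indian fantail peaks, and highest on scaffold 103, with 31 and 40. Over all forelimb peaks it was 0.932. Whether these extremes exceed the counting error of so few peaks was not tested. The hindlimb lists had 34 and 53 peaks on scaffold 93. The whole lists had the same order, with 0.932 times as many forelimb and 1.19 times as many hindlimb peaks in the Indian fantail. Scaffold 236, which holds a homer-only cluster named above, had the largest homer-only share, 21 of 37 peaks (56.8%), and also the largest fantail-only share, 10 of 25 (40.0%). Over the 157 scaffolds, the shares had medians of 23.5% and 21.3%.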

How the data were processed

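H3K27ac ChIP-seq libraries of HH25 limb buds were sequenced as single-end 50-bp reads (2 ChIP and 2 input libraries for each breed and limb). The authors deposited 4 peak lists (2 breeds by 2 limbs), with start, end and a score for each peak; the replicates are combined, and how is not given in the sources used here, nor is the genome build. The submitters' processing notes name CASAVA, Bowtie2 2.2.3, SAMtools, MACS 1.4.2 and MACS2 2.0.10.20130915. From its values and the peak names the deposited score looks like the scaled negative log10 p-value that MACS writes, but this was inferred. The score is therefore used only within a list. Deposited tables that hold the authors' own hindlimb comparison (regions with likelihood ratios, by MACS2) were not used. Starts are given counting from 1.

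Peaks were called shared at an overlap of at least 1 bp. The named regions were every forelimb peak in the *Tbx5*, *Tbx3* and *H2afy*–*Pitx1* windows and the deleted interval. Bounds of the deletion came from the study's text. The *Tbx5* and *Tbx3* windows were set by hand after its plots, and the *H2afy*–*Pitx1* window by hand past the widest hindlimb peak. Also named for each breed were the 5 breed-only peaks of highest score, the 5 widest and the 5 clusters of most peaks (ties by covered length). The widest peaks, gaps and the extreme width ratios were named too. Other named peaks were chosen after their values were seen. The members, windows and rules were chosen with earlier results of these data known. A planned list of limb genes was not used, for want of an annotation of this assembly. The alternatives were an overlap of 50% of both peaks, a score of at least 100 or at least the list median, lists of equal size, peaks within 1 kb joined and other gaps in a cluster. Calculations used Python 3.11.15 with numpy 2.4.6, pandas 2.3.3 and scipy 1.17.1, and figures matplotlib 3.10.9. On simulated lists, 7 of 7 checks recovered the planted result.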

Additional observations from a re-analysis of the deposited data

Results flagged for a closer look

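The breeds differed in opposite directions in their limbs: the Indian fantail had 0.932 times as many forelimb peaks as the racing homer and 1.19 times as many hindlimb peaks. The difference between the limbs was not tested, since each number comes from a single list. Covered length did not show it, being 1.05 times as long in the Indian fantail forelimb and 1.26 times as long in its hindlimb.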

How the results depend on the processing

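The alternatives gave 47 values of the main results: 12 lay within the interval of the main value (for a count, within 1.5 times) and 35 did not. Of the 12, the 2 cluster counts with an overlap of 50% could not differ, since a cluster may hold no peak of the other breed. The 35 include all values of the share of covered length, which has no interval to lie within. Values are given as racing homer and Indian fantail. Shared and breed-only peaks were chosen anew under each alternative that changed the lists or the overlap. The share of forelimb peaks shared was 66.1% and 70.9% with an overlap of 50% of both peaks, 77.0% and 81.6% with a score of at least 100, 77.7% and 81.7% with a score at or above the list median, and 78.0% and 75.9% with lists of equal size, which turned its order. The share of covered length shared was 77.9% and 75.5% with a score of at least 100, 78.2% and 75.6% above the median, 78.7% and 72.3% with equal size, and 77.6% and 74.2% with peaks within 1 kb joined; it has no interval, and any other value is listed. The median log2 width ratio was 0.069 (50% overlap), 0.067 (score of at least 100) and 0.062 (above the median), against 0.078. The share of breed-only peaks over the hindlimb of the other breed was 40.2% and 42.7% with 50% overlap, which turned its order, 67.9% and 52.3% with a score of at least 100, 43.6% and 39.7% with equal size, and for homer-only peaks 65.8% above the median and 59.8% with peaks joined. Clusters numbered 26 and 22 with a score of at least 100, 17 and 10 above the median, and 53 and 36 with gaps of at most 20 kb. With peaks joined, 34 were fantail-only. With equal size, clusters numbered 56 and 80, which turned their order, although the 80 lay within 1.5 times of the main count.

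The pattern of the deleted interval was counted under the same alternatives, chosen after the data were seen. It was 1 homer-only cluster with equal size, joined peaks and both other gaps, and 0 with 50% overlap, a score of at least 100 or above the median; the fantail-only count of 0 became 1 with a score of at least 100 and with equal size. No paired analysis was possible because each list combines its replicates, and for that reason no replicate could be left out. The depth of the libraries is unknown, so how far it sets the number of weak peaks was not tested.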
